A study of Mus musculus with 4 samples.

Results

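The AP-1 family was described through 9 genes, chosen because their symbol stood as the gene name of a probe: Fos, Fosb, Fosl1, Fosl2, Jun, Junb, Jund, Atf3 and Batf. They were read by 10 probes of 39418, and they are 9 of the 31703 genes or gene names on the array. Each member passed the background mark somewhere, and 5 (Fosb, Jun, Junb, Jund and Batf) passed it on all 4 arrays. AP-1 is a dimer of basic leucine zipper proteins, in which a FOS or ATF partner joins a JUN protein and binds short DNA elements related to TGANTCA. Fos, Fosb, Jun and Junb are immediate-early genes, which cells transcribe within minutes of a growth factor, cytokine or stress signal through MAP kinases, and whose RNAs are short-lived. In blood cells the family is known for roles in growth, stress and differentiation responses.

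The arrays compared wild-type and Ezh2-null erythrocyte/megakaryocyte progenitors (MEPs), the bipotent precursors of red cells and platelets, from 2 sources. EZH2 is the catalytic subunit of Polycomb repressive complex 2, which methylates lysine 27 of histone H3 at repressed genes. The 4 groups were wild-type cells of E14.5 (embryonic day) fetal liver, Ezh2-null (Ezh2-/-) cells of E14.5 fetal liver, wild-type cells of adult bone marrow and Ezh2-null cells of adult bone marrow, all on the C57BL/6 background. Each group was 1 array of a single slide, hybridised with Cy3-labelled RNA. The labels do not name the deleted part of Ezh2, a Cre driver, the number or sex of the animals, or how the cells were isolated. In these bulk samples, fewer cells of a type and less RNA per cell cannot be told apart, and source is confounded with developmental stage.

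On each array 39.0% to 46.4% of probes were well above background and no spot was saturated. The Ezh2 probe read 33.5 and 35.4 on the wild-type arrays of fetal liver and bone marrow, and 194 and 70.0 on the Ezh2-null arrays. It was thus brighter on the null arrays; since the deleted part is not known, it does not check the genotype labels. An Xist probe read 743 on the Ezh2-null fetal liver array and was not well above background on the other 3. A second Xist probe read 14.4 there and was likewise detected on that array only. The labels give no sex, so in comparisons with that array sex cannot be told apart from genotype or source. Of 15 erythroid and megakaryocyte progenitor markers, 11 to 14 were well above background on each array. Their summed intensities were 18258 and 12764 in wild-type and Ezh2-null fetal liver, and 15987 and 18355 in bone marrow. Of 15 granulocyte and macrophage markers on the arrays, 8, 9, 7 and 6 were detected in the same order. Their summed intensities were higher, at 111798, 98265, 59539 and 58377. Elane, Ctsg, Lyz2, S100a8, S100a9 and Fcgr3 of this list were not well above background on any array. A sum depends on the brightness of each probe, so sums of different lists do not rank cell types. Of 14 lymphoid markers measurable on the arrays, 10 were well above background on the Ezh2-null bone marrow array, with a summed intensity of 4172, against 5 and 200.1 on the wild-type bone marrow array. Vpreb3 and Cd79b, which mark B-lineage cells, were not well above background on the latter. Of 10 hepatocyte markers, 5 and 3 were detected on the wild-type and Ezh2-null fetal liver arrays, with summed intensities of 679 and 136, while Alb and Afp were not well above background on any.

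The probes that carry the results below are shown by their first 30 of 60 bases, as printed in the array files, because each value is the signal of that sequence and of no other part of the gene. Positions are on mouse build mm9, and exon or untranslated-region status was not analysed here. The Fos probe lies at chr12:86817900-86817959 on the plus strand and was printed 10 times. The Fosb probe lies at chr7:19888168-19888227 on the minus strand. The Fosl2 probes lie at chr5:32455088-32455147 and chr5:32460076-32460135 on the plus strand, at transcript positions 738 and 5726. The Jun probe lies at chr4:94716928-94716987 on the minus strand and the Jund probe at chr8:73224436-73224495 on the plus strand.
Fos: ggactttattttccagtagatagaaatcaa
Fosb: actgccgaccacaattcattgactccatag
Fosl2 at 738: gattgctgagctgcagaaggagaaggagaa
Fosl2 at 5726: gctatggaggaaagaacatattaaaaactt
Jun: atgctaacgcagcagttgcaaacgttttga
Jund: ttttgctacgagtccacattcctgttccgt

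Intensities are in the array software's processed-signal units, scaled so that all arrays share their 75th percentile over the 12880 probes detected on all 4. A value after ± is the software's error for the spot, or, where said, an SD over repeat spots; neither covers differences between animals. Because each group is 1 array, no difference between 2 arrays was tested, and a gene is called higher or lower at a fixed size of 2-fold. Where a probe was well above background on only 1 of 2 arrays, the other side was set to the array's detection floor and the difference is written "at least". The 4 comparisons share arrays, so their values are given side by side.

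**Figure D1:**
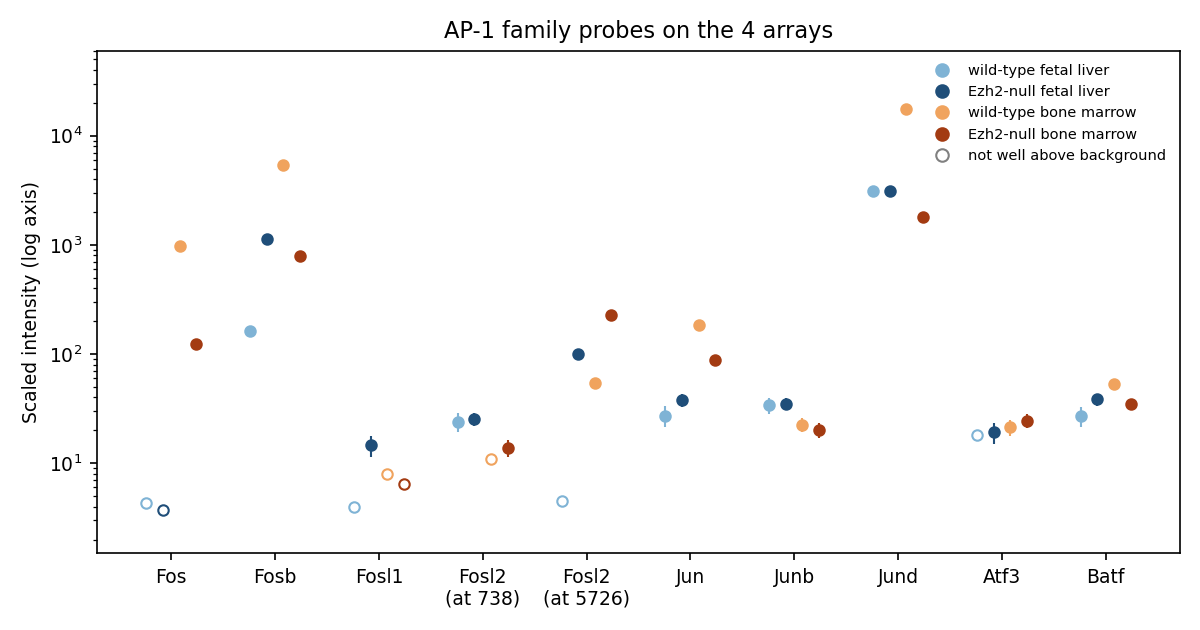
Scaled intensity (log axis) of each AP-1 probe on the 4 arrays; filled points are well above background, open points are not, and bars are the Feature Extraction error. Fos, Fosb, Jun and Jund are highest on the wild-type bone marrow array, and the Fosl2 probe at 5726 is highest on the Ezh2-null bone marrow array.

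Among the FOS genes, Fos had the widest range over the arrays. Fos encodes the FOS subunit, which cannot dimerise with itself and depends on a JUN partner. Its probe read 982 ± 47.5 (SD over 10 spots) on the wild-type bone marrow array and 124 ± 8.52 on the Ezh2-null bone marrow array. In fetal liver it read 4.28 in wild type and 3.73 in Ezh2-null cells, with 0 of 10 spots well above background on either array. The 10 spots ran from 928 to 1058 and from 108 to 141 on the bone marrow arrays. They are repeats within an array and do not measure differences between animals. How often the spots of other repeated probes separate between these arrays was not counted. Fos was thus 7.94-fold lower in Ezh2-null than in wild-type bone marrow, and it was at least 50.9-fold higher in wild-type bone marrow than in wild-type fetal liver.

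Fosb, whose protein resembles FOS and is also immediate-early, read 161 ± 16.7 in wild-type and 1123 ± 112 in Ezh2-null fetal liver. In bone marrow it read 5344 ± 534 in wild-type and 797 ± 79.7 in Ezh2-null cells. The order of the genotypes was therefore opposite in the 2 sources. The Ezh2-null array was 6.96-fold higher in fetal liver (log2 difference 2.80) and 6.71-fold lower in bone marrow (log2 difference -2.75). Opposite calls of this order, up with the null genotype in fetal liver and down in bone marrow, were made for 427 genes, 3.08% of the 13868 measured in both sources.

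Fosl2, which encodes the FOS-related protein FRA2, was read by 2 probes that did not agree in size. The probe at 5726, which has the highest mean signal and stands for the gene, read 4.53 in wild-type fetal liver, which is not well above background, and 99.1 ± 10.3 in Ezh2-null fetal liver. It read 54.4 ± 5.99 in wild-type and 226 ± 22.7 in Ezh2-null bone marrow. By this probe Fosl2 was higher on the Ezh2-null array in both sources, at least 5.13-fold in fetal liver and 4.15-fold in bone marrow, as were 133 genes, 0.959% of 13868. The probe at 738 read 24.1 and 25.4 in wild-type and Ezh2-null fetal liver, and 10.9 and 13.8 in bone marrow, where the wild-type value is not well above background. Its log2 differences between genotypes were 0.08 in fetal liver and at least 0.31 in bone marrow, so neither reached 2-fold. Fosl1, which encodes FRA1, read 14.7 ± 3.17 in Ezh2-null fetal liver and was not well above background on the other 3 arrays, where it read 4.01, 8.0 and 6.46.

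**Figure D2:**
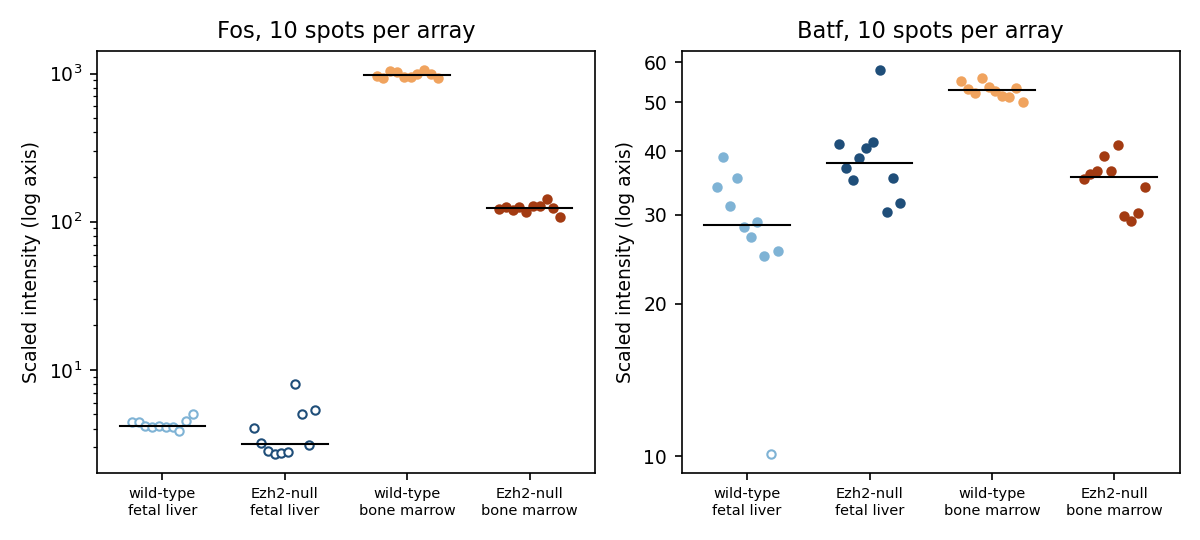
Scaled intensity (log axis) of the 10 repeat spots of the Fos and Batf probes on each array, with the bar at the median; open points are not well above background. The Fos spots of the 2 bone marrow arrays are far apart, whereas the Batf spots of the 2 fetal liver arrays overlap.

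Jun, Junb and Jund encode the partners that can form dimers among themselves or with FOS proteins, and they differed from one another. Jund, which is expressed in most cells without a stimulus, read 3132 ± 313 and 3087 ± 309 in wild-type and Ezh2-null fetal liver. It read 17586 ± 1759 in wild-type and 1818 ± 182 in Ezh2-null bone marrow. The fetal liver arrays lay within the software's error of each other, while in bone marrow Jund was 9.67-fold lower on the Ezh2-null array. Only 17 of 15279 genes fell further there, with 35 below Fos and 59 below Fosb.

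Jun, the founding member that binds DNA as a homodimer or with FOS, read 27.3 ± 5.94 and 38.0 ± 5.23 in wild-type and Ezh2-null fetal liver. It read 186 ± 18.8 in wild-type and 89.0 ± 9.26 in Ezh2-null bone marrow. Its bone marrow difference was 2.09-fold lower on the Ezh2-null array, near the 2-fold limit, and it was under 2-fold with scaling over all probes, quantile normalization, normexp background correction or a pseudocount of 16 (log2 differences between -1.07 and -0.73 over all 12 alternatives). Junb, an immediate-early gene that can oppose JUN at some promoters, read 34.0 and 35.2 in fetal liver and 22.6 and 20.2 in bone marrow, wild type first. Its genotype differences, 0.05 and -0.16 on the log2 scale, were within the software's error of 0.31 and 0.30.

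Atf3, a stress-induced repressor, and Batf, a factor of lymphoid and myeloid cells that dimerises with JUN proteins, showed no 2-fold difference between genotypes. Atf3 read 18.1 in wild-type fetal liver, which is not well above background, and 19.2 ± 4.12, 21.4 ± 3.56 and 24.5 ± 3.56 on the Ezh2-null fetal liver, wild-type and Ezh2-null bone marrow arrays. Batf spots ran from 10.1 to 38.9 (median 28.6) in wild-type and from 30.4 to 57.9 (median 37.9) in Ezh2-null fetal liver, and the 2 sets overlap. In bone marrow they ran from 50 to 55.8 (median 52.8) in wild type and from 29.1 to 41.2 (median 35.6) in Ezh2-null cells. These too are repeats within an array, and how often other repeated probes separate was not counted. The Batf difference in bone marrow was 1.53-fold lower on the Ezh2-null array.

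In the comparison of Ezh2-null with wild-type fetal liver, 2 of the 8 measured members were at least 2-fold higher (Fosb and Fosl2), where 15.4% of 16257 genes were, and 0 were at least 2-fold lower, where 13.5% were. Fosl1 and Atf3 entered as 0 and could not be called, since their Ezh2-null values, 14.7 and 19.2, lay below the wild-type floor of 19.3. With these zeros the median member difference was 0.26 on the log2 scale, against -0.14 over all genes. With spike-in scaling the median of all genes moved to 0.22, and the share of higher calls among all calls went from 53.3% to 81.8%, against 41.4% with the percentile over all probes. Fosb and Fosl2 kept their direction in both. Fosb kept its 2-fold call under all 12 alternatives, whereas Fosl2 lost it with normexp background correction (0.59). Fosb has a single probe, so settings that choose among probes or filter by detection could not change its value. For Fosl2 no alternative used the probe at 738 alone, whose difference was 0.08.

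In the comparison of Ezh2-null with wild-type bone marrow, 4 of 8 measured members were at least 2-fold lower (Jund, Fos, Fosb and Jun), where 7.74% of 15279 genes were. Fosl2 was at least 2-fold higher by its probe at 5726, where 4.54% were. At a stricter size of 4-fold, 3 members were lower, where 1.42% of genes were, and 1 was higher, where 0.982% were. The median member difference was -0.84 on the log2 scale and -0.03 over all genes. Fos, Fosb, Jund and Fosl2 kept their call under all 12 alternatives, with Fos between -2.99 and -2.61, Fosb between -2.92 and -2.64, Jund between -3.50 and -3.16 and Fosl2 between 1.20 and 2.16. Fos, Fosb and Jund each have a single probe, detected on both arrays. Settings that choose among probes or filter by detection therefore could not change their values, and the series table holds the same intensities, rounded. For Fosl2 no alternative used the probe at 738 alone, whose difference was at least 0.31. Jun lost its call under 4 of them. The summed lymphoid marker signal was also higher on the Ezh2-null bone marrow array, 4172 against 200.1, with 8 of 10 measured lymphoid markers at least 2-fold higher. Its part in these differences was not tested.

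**Figure D3:**
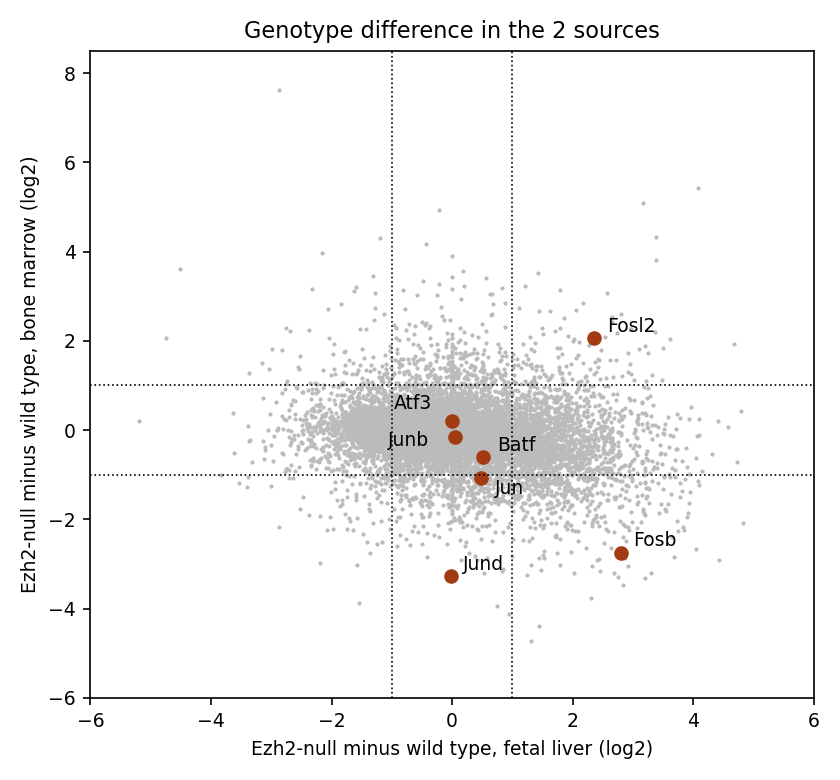
Log2 difference between the Ezh2-null and wild-type array in fetal liver (x axis) and in bone marrow (y axis) for each gene measured in both sources (grey) and 7 AP-1 members (red), with dotted lines at 2-fold. Fosb lies in the lower right, Jund in the lower centre and Fosl2 in the upper right.

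The difference between the sources in the genotype difference itself was described for members detected on all 4 arrays. The log2 difference in bone marrow minus that in fetal liver was -5.54 for Fosb, -3.25 for Jund, -1.54 for Jun, -1.12 for Batf and -0.21 for Junb, with a median of 0.26 over all 11177 such genes. Of these genes, 9.4% differed by at least 4-fold in either direction and 6.37% were lower in bone marrow by that size. Fosb and Jund are the 2 members past that size.

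The sources were also compared within each genotype. In wild-type cells 5 of 8 measured members were at least 2-fold higher in bone marrow than in fetal liver (Fos, Fosb, Jun, Jund and Fosl2), where 13.1% of 15382 genes were, and 0 were lower, where 31.9% were. The median member difference was 1.99 and that of all genes -0.58 on the log2 scale. Fosb was 33.1-fold, Jun 6.81-fold and Jund 5.61-fold higher, and only 2 genes had a larger value than the bound of Fos and 6 than Fosb. By contrast, Batf (0.96), Atf3 (at least 0.15) and Junb (-0.59) did not reach 2-fold. Batf did so under 5 of 12 alternatives (up to 2.26) and Atf3 with spike-in scaling (1.44). Jun fell to 0.83 with normexp background correction, and Fosl2 was under 2-fold with normexp (0) and with a pseudocount of 16 (0.995). Fosl2 was at least 2.82-fold higher by the probe at 5726 and at least 2.16-fold lower by the probe at 738, so its direction depends on the probe. Markers of other cell types differed between the wild-type sources too, with 5 of 5 measured hepatocyte markers (summed intensity 679 in fetal liver and 52.7 in bone marrow), 4 of 7 lymphoid (379 and 200.1) and 4 of 8 granulocyte and macrophage markers (111798 and 59539) at least 2-fold lower in bone marrow, and 1 lymphoid marker higher. Their part in the members' differences was not tested.

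In Ezh2-null cells 3 of 9 members were at least 2-fold higher in bone marrow (Fos, Jun and Fosl2), where 10.5% of 16688 genes were, and 0 were lower, where 27.1% were. Lymphoid markers moved with this comparison, 6 of 10 higher in bone marrow (summed intensity 221 and 4172), as did 3 of 4 hepatocyte (136 and 93.5) and 3 of 9 granulocyte and macrophage markers (98265 and 58377), lower in bone marrow; their part was not tested. The median member difference was -0.15, against -0.52 over all genes. Fos was at least 9.85-fold, Jun 2.34-fold and Fosl2 2.28-fold higher, while the Fosl2 probe at 738 was 1.84-fold lower. Jun lost its call with normexp (0.48) and a pseudocount of 16 (0.96), and Fosl2 with normexp (0.75) and the mean of both probes (0.15), while Fos kept it but fell to 1.32 with normexp. Atf3 reached 2-fold with quantile normalization (1.05) and spike-in scaling (1.23). Fosb (-0.49) and Jund (-0.76) read slightly lower in Ezh2-null bone marrow than in Ezh2-null fetal liver, and both signs turn with some scalings. With spike-in scaling the median of all genes moved to 0.68 in wild-type and 0.35 in Ezh2-null cells, and the share of higher calls went from 29.1% to 94.5% and from 27.9% to 74.4%. With the percentile over all probes the shares were 54.9% and 64.2%, and with quantile normalization 51.7% and 52.2%.

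Several members sit far from the start of the transcript, and the fetal liver genotype comparison and both source comparisons had a trend with probe position. Over 20 position bins the median of the fetal liver genotype comparison rose from -0.43 in the bin of the Junb and Batf probes to 0.18 in that of Fosb and 0.43 in that of Fosl2. With the trend removed, the fetal liver difference was 2.62 for Fosb and 1.93 for Fosl2. The Ezh2-null to wild-type medians by bin in bone marrow ran close to 0, at -0.09 for the bin of Fosb and -0.07 for that of Jund. Between wild-type sources the medians were -0.75 in the bin of Junb and Batf, -0.17 in that of Fosb and -0.64 in that of Fosl2. Between Ezh2-null sources they were -0.33, -0.72 and -1.08. With the trend removed, the genes lower between wild-type sources went from 4901 to 1961.

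An additive fit of source and genotype over all 4 arrays (limma, Benjamini-Hochberg adjustment) called 0 of 17668 genes for either term. At an unadjusted p under 0.05 it gave 3067 genes for source and 424 for genotype. Its Fosl2 genotype estimate was 2.21 ± 0.14 (SE, log2), with adjusted p = 0.8022 in limma. Before the fit, values below the highest array floor, 19.3, were set to it. The wild-type fetal liver value of Fosl2 (4.53, probe at 5726) was among them, so its estimate and SE rest in part on a bound. Without that floor the estimate was 3.25 ± 0.72. The Fosl2 probe at 738 did not enter this estimate. The fit has 1 residual degree of freedom and no term for a genotype difference that depends on source. The opposite Fosb differences therefore averaged to 0.03 ± 2.14.

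Genes that act with the family were read from lists of bZIP partners, upstream MAP kinases, serum response factor and its cofactors, MAP kinase phosphatases, other immediate-early genes and genes with described AP-1 sites. In Ezh2-null against wild-type bone marrow, 8 of 19 measured immediate-early genes were at least 2-fold lower and 0 higher, where 7.74% and 4.54% of all genes were, with a median of -0.88. Tnfaip3, a brake on NF-kappaB signalling, read 218 in wild-type and 8.4, not well above background, in Ezh2-null cells, at least 22.3-fold lower. Ier3, a stress-responsive survival gene, went from 92.1 to 12.2, which is 7.52-fold lower. Klf6, a zinc finger factor, went from 62.1 to 7.91, not well above background, at least 6.34-fold lower.

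Of the 6 measured MAP kinase phosphatases, Dusp1, which inactivates MAP kinases and is itself immediate-early, read 6445 in wild-type and 2028 in Ezh2-null bone marrow, 3.18-fold lower. Dusp10, which acts on JNK and p38, went the other way, from 26.6 to 118, 4.42-fold higher, and the list's median was 0.46. Of 14 measured MAP kinases 1 was higher and 1 lower, of 12 bZIP partners 1 higher and 2 lower (among them Atf1, 147 against 48.8), of 6 serum response factors and cofactors 1 higher and 0 lower, and of 9 genes with described AP-1 sites 1 higher (Vim, an intermediate filament gene, 23.8 against 107.5) and 0 lower. The list medians were -0.17, -0.33, 0.20 and 0.17, and that of all genes was -0.03.

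In Ezh2-null against wild-type fetal liver, 2 of 15 measured immediate-early genes were at least 2-fold higher and 1 lower, near the 15.4% and 13.5% of all genes. Klf6 went from 9.07, not well above background, to 320 (at least 16.6-fold higher), Myc, a growth regulator, from 102 to 407 (4.01-fold higher), and Klf2, an endothelial and lymphoid zinc finger factor, from 167 to 70.7 (2.37-fold lower). Of 14 MAP kinases 4 were higher and 2 lower, and of 11 genes with described AP-1 sites 4 were higher and 0 lower, among them Vegfa at least 12.4-fold and Hmox1 3.03-fold. The list medians were 0.06, 0.24 and 0.36, against -0.14 over all genes. Of 12 bZIP partners 0 were higher and 0 lower, and 1 of 6 serum response factors and cofactors (Elk4) and 1 of 6 phosphatases (Dusp10) were higher and 0 lower, with medians of 0.26, 0.07 and 0.02. Hepatocyte markers moved in this comparison too, with 4 of 5 measured at least 2-fold lower on the Ezh2-null array; their part in these differences was not tested.

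**Figure D4:**
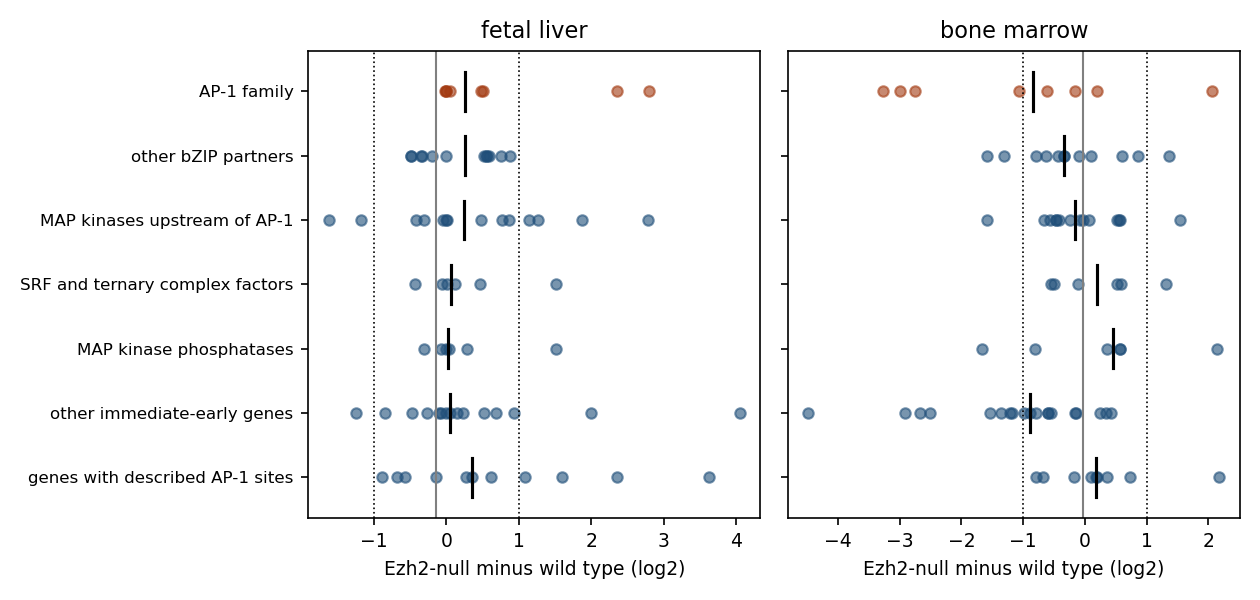
Log2 difference between the Ezh2-null and wild-type array for each measured gene of the AP-1 family (red) and 6 lists (blue), in fetal liver (left) and bone marrow (right); black bars are list medians, the grey line is the median of all genes and dotted lines mark 2-fold. In bone marrow the medians of the AP-1 family and of the other immediate-early genes, -0.84 and -0.88, lie below that of all genes.

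In wild-type bone marrow against wild-type fetal liver, 11 of 18 measured immediate-early genes were at least 2-fold higher and 1 lower, where 13.1% and 31.9% of all genes were, with a median of 1.95 against -0.58. Zfp36, which promotes decay of AU-rich RNAs, read 22.7 and 1099 in fetal liver and bone marrow, 48.4-fold higher. Egr1, a zinc finger immediate-early factor, read 4.22, not well above background, and 606, at least 31.4-fold higher. Dusp1 went from 313 to 6445 (20.6-fold higher) and Dusp6 from 4.07, not well above background, to 438 (at least 22.7-fold higher), and 3 of 6 phosphatases were higher and 1 lower (median 0.74). Of 10 genes with described AP-1 sites 1 was higher and 4 lower (median -0.98), of 12 bZIP partners 1 higher and 4 lower (median -0.03), and of 13 MAP kinases 2 higher and 3 lower (median 0). Of 4 serum response factors and cofactors 1 was higher (Srf) and 1 lower (Elk1), with a median of 0.09.

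In Ezh2-null bone marrow against Ezh2-null fetal liver, 5 of 18 measured immediate-early genes were at least 2-fold higher and 2 lower, where 10.5% and 27.1% of all genes were, with a median of -0.29 against -0.52. Of 7 phosphatases 4 were higher and 0 lower (median 1.09), among them Dusp1, 297 in fetal liver and 2028 in bone marrow. Of 11 genes with described AP-1 sites 0 were higher and 6 lower (median -1.22), of 14 bZIP partners 1 higher and 5 lower (median -0.73), of 15 MAP kinases 2 higher and 3 lower (median -0.52), and of 6 serum response factors and cofactors 1 higher and 2 lower (median -0.13).

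For the 5 members detected on all 4 arrays, the genes with the nearest profile were found among 11176 others, by the distance between log2 values centred on their mean over the 4 arrays. They were Sptssa for Fosb (distance 1.03), Dctn6 for Jun (0.28), Frmpd1 for Junb (0.0064) and Ctnna1 for Batf (0.08). The named gene nearest to Jund was Efr3b (0.85), after 2 transcripts without a symbol. Junb had Ier5, another immediate-early gene (0.046), and 4930519P11Rik (0.047) as its next nearest. Junb read only 20.2 to 35.2, where the array floors ran from 9.79 to 19.3, so its profile is that of a dim probe. With 4 arrays per profile these distances are a description.

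Promoter sequence was available for 8 of the 9 members from RefSeq (GRCm38.p6), and the 120 bases before the start of transcription are shown for Fos, Fosb, Jun and Jund, the genes lower in Ezh2-null bone marrow. Capitals mark the cAMP-response half-site TGACG or the JUN-type element TGACATCA, searched on both strands. Fos lies at chr12:85473770-85473889 on the plus strand, Fosb at chr7:19310046-19310165 on the minus strand, Jun at chr4:95052223-95052342 on the minus strand and Jund at chr8:70697619-70697738 on the plus strand.
Fos: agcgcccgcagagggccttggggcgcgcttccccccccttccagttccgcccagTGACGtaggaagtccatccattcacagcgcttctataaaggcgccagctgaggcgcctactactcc
Fosb: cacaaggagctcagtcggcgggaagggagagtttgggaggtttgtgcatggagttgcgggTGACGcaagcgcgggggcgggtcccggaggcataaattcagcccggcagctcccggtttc
Jun: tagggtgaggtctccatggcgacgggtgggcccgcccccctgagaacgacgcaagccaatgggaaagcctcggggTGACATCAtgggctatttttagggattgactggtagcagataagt
Jund: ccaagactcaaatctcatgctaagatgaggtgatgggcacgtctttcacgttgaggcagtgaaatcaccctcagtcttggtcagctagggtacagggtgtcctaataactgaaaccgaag

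TGACG began 66 bases before the start in Fos and 60 bases before it in Fosb, and TGACATCA 45 bases before it in Jun. TGACG also stood in the windows of Junb, Batf and, on the opposite strand, Atf3. It was found in 11.7% and TGACATCA in 2.10% of 32851 promoter windows of this length. Neither motif was in the windows of Jund or Fosl2, and no member's window held TGANTCA (3.41% of all windows) or the serum response CArG box (0.749%). Elements further upstream lie outside these windows, so a missing match does not show that a gene lacks the element. A match describes these letters and not a bound site.

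**Figure D5:**
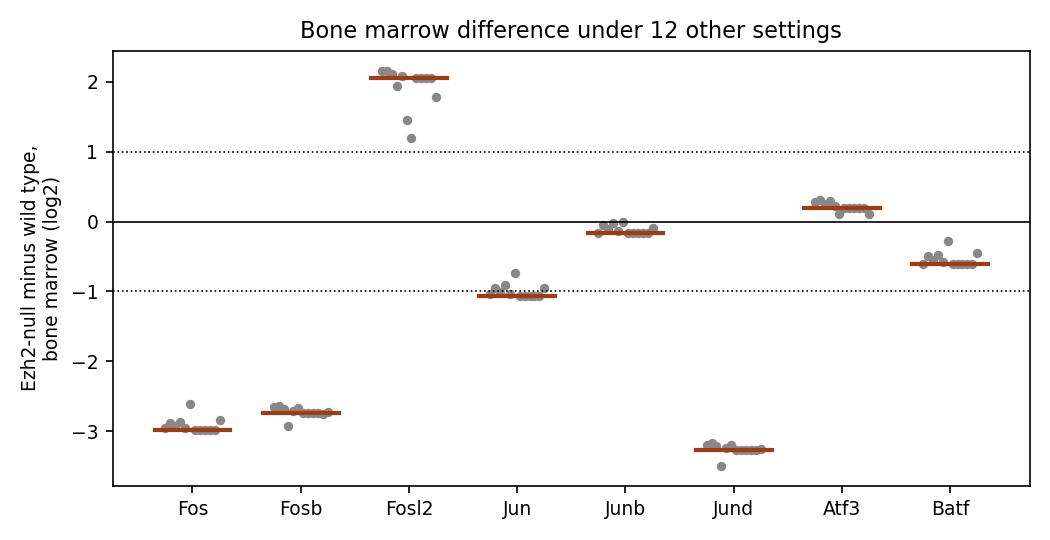
Log2 difference between the Ezh2-null and wild-type bone marrow arrays for each measured member, with the reported value as a red bar and 12 other settings as grey points; dotted lines mark 2-fold. Fos, Fosb, Jund and Fosl2 stay beyond 2-fold in each setting, and Jun lies at the limit. Some settings could not change a member with a single probe, and none used the Fosl2 probe at 738 alone.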

How the data were processed

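RNA of 1 sample per group was labelled from 250 ng and hybridised to 1-colour arrays. Per the file headers, each deposited intensity is a processed signal, background-subtracted by the scanner software (Feature Extraction 10.7.3.1, protocol GE1_107_Sep09) and not normalized between arrays. The deposited flags for outliers, saturation and signal well above background are other, whole-number marks per the file headers. The deposited series table holds the same intensity values, rounded (largest deviation 0.496%).

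Control spots and spots marked as outliers were left out and repeat spots averaged on the log2 scale. The brightest probe stood for a gene. Differences were called at 2-fold (log2 of 1), with the dimmer side at the higher of its own value and the array's floor. Where the detected side lay below that value, the difference was entered as 0. The samples were not replicated, so no p-value was computed between 2 arrays. The additive fit used limma 3.58.1 in R 4.3.3, at an adjusted p threshold of 0.05. On simulated data with 17668 genes and equal spread it recovered 100% of genotype changes of 1 to 4 on the log2 scale with 8 false calls; with spreads drawn from the fitted prior it recovered 0%. Python 3.11.15 was used otherwise. The members, lists and tests were chosen with earlier results of these data known. From each list, up to 3 called genes in each direction were named, those of the largest difference, beside each member and its 3 nearest profiles. Alternatives are described in the closing section; the series table served as a check and a setting.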

Additional observations from a re-analysis of the deposited data

Results flagged for a closer look

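5 genes among the AP-1 members, pathway genes and markers differed by at least 2-fold between genotypes in both sources, but in opposite directions. Over all genes, 427 of 13868 (3.08%) were higher on the null array in fetal liver and lower in bone marrow. The share for the reverse order, and the number of listed genes measured in both sources, were not counted. The 5 genes are therefore not shown to exceed the share of all genes. The difference between the sources was not tested, since each group is 1 array. Fosb had log2 differences of 2.80 in fetal liver and -2.75 in bone marrow. For the other 4 genes some values are bounds, because 1 array of the pair was not well above background. Klf6 had bounds of 4.05 and -2.66. Gata2, a progenitor factor, had a bound of 1.39 and a measured -1.14. Trf, a hepatocyte marker, had bounds of -1.10 and 1.48, and Vpreb1, a B-lineage marker, had bounds of -2.87 and 7.63. No explanation was weighed for any of them.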

How the results depend on the processing

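Each group is 1 array, so animal-to-animal spread is not measured, and the signal of dim members sets the limit: Fos was not well above background on either fetal liver array, Fosl1 on 3 of 4 arrays and Atf3 on 1. No paired analysis was possible because the labels give no replicate numbers and each group has 1 array; leaving out a replicate and blocking on the slide were not run, with 1 array per group on 1 slide. Of 15 member differences of at least 2-fold, 9 kept their call under every alternative run, and of 18 smaller ones 13 did. No called difference turned its sign. For members with a single probe, the settings that choose among probes could not change the value. No alternative used the Fosl2 probe at 738 alone, which read lower in bone marrow than in fetal liver. A log2 difference counted as moved when it changed by more than the median spread of repeat spots. Counts of genes were judged by their ratio instead. The cause of the moves was not tested. The removal of the position trend was added after seeing the data. Values below are log2 differences for members and counts of genes at least 2-fold higher or lower.

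With spike-in scaling, the fetal liver genotype differences were Fosb 3.25, Fosl2 2.81, Jun 0.92, Junb 0.50, Jund 0.43, Atf3 0.44 and Batf 0.95, with 3780 genes higher and 841 lower. The wild-type source differences were Fos 6.97, Fosb 6.35, Fosl2 2.79, Jun 4.06, Junb 0.71, Jund 3.79, Atf3 1.44 and Batf 2.26, with 5988 higher and 347 lower. The Ezh2-null source differences were Fos 4.18, Fosb 0.39, Fosl1 0, Fosl2 2.07, Jun 2.11, Junb 0.076, Jund 0.12, Atf3 1.23 and Batf 0.73, with 5004 higher and 1721 lower.

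With the percentile over all probes, the wild-type source differences were Fos 6.02, Fosb 5.40, Fosl2 1.85, Jun 3.12, Junb -0.24, Jund 2.84, Atf3 0.50 and Batf 1.32, with 2330 lower. The Ezh2-null source differences were Fos 3.93, Fosb 0.13, Fosl1 0, Fosl2 1.81, Jun 1.85, Junb -0.18, Jund -0.14, Atf3 0.97 and Batf 0.47, with 3795 higher and 2119 lower. Scaling on the median of detected probes gave, in the Ezh2-null source comparison, Fos 3.54, Fosb -0.25, Fosl1 -0.34, Fosl2 1.43, Jun 1.47, Junb -0.56, Jund -0.52, Atf3 0.59 and Batf 0.089.

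Quantile normalization gave Jund 0.35 in the fetal liver genotype comparison and Fosb -2.92, Jun -0.90, Junb -0.026, Jund -3.50 and Batf -0.47 in that of bone marrow. It gave Fos 6.01, Fosl2 2.0, Jun 3.05, Junb -0.10, Jund 3.01, Atf3 0.72 and Batf 1.42 between wild-type sources, with 2483 lower. Between Ezh2-null sources it gave Fos 3.76, Fosl1 0, Fosl2 1.48, Jun 1.73, Junb -0.084, Atf3 1.05 and Batf 0.49, with 2717 higher and 2488 lower.

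With normexp background correction, the fetal liver genotype differences were Fosb 2.17, Fosl2 0.59, Jun -0.39, Junb -0.35 and Batf -0.30, with 1 member higher, and 794 genes higher and 1059 lower. Those of bone marrow were Fos -2.61, Fosl2 1.46, Jun -0.73, Junb -0.012 and Batf -0.28, with 172 higher and 199 lower. Between wild-type sources they were Fos 3.30, Fosb 4.44, Fosl2 0, Jun 0.83, Junb -0.87 and Batf -0.36, with 3 members and 712 genes higher. Between Ezh2-null sources they were Fos 1.32, Fosl2 0.75, Jun 0.48, Junb -0.53, Atf3 -0.11 and Batf -0.34, with 1 member and 710 genes higher and 2290 lower.

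A pseudocount of 16 gave Fosl2 1.71 in the fetal liver genotype comparison, and Fos -2.84, Fosl2 1.78 and Batf -0.44 in that of bone marrow, with 349 higher and 524 lower. It gave Fos 4.82, Fosl2 0.995, Jun 2.22, Junb -0.37 and Batf 0.68 between wild-type sources, with 2448 lower, and Fos 2.29, Fosl1 -0.25, Jun 0.96, Junb -0.50 and Atf3 0.20 between Ezh2-null sources, with 2758 lower. The mean of both probes gave Fosl2 1.20 in the bone marrow genotype comparison, and 1.22 and 0.15 between wild-type and Ezh2-null sources.

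With only genes detected on both arrays, 1 member and 1569 genes were higher in the fetal liver genotype comparison, 423 genes were higher and 691 lower in that of bone marrow, 3 members were higher between wild-type sources and 2900 genes lower between Ezh2-null sources; the fit, over 11177 genes, then called 138 genes for source, with no member among them, and 0 for genotype (limma, 257 at an unadjusted p under 0.05). With no filter and no bound, the fetal liver genotype differences were Fosl1 1.87 and Fosl2 4.45, with 3846 genes higher and 4677 lower. In bone marrow 1807 genes were higher and 3165 lower. Between wild-type sources they were Fos 7.84 and Fosl2 3.58, with 10041 lower, and between Ezh2-null sources Fos 5.05 and Fosl1 -1.18, with 1 member and 8716 genes lower. In the fit under this setting, values not well above background entered as measured. It gave all genes the same spread (SE 0.72 for each member), so its calls do not rest on a gene's own spread. The fit then called 1398 genes for source and 140 for genotype, with Fos, Fosb and Fosl2 among the former and Fosl2 the member among the latter.

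With the position trend removed, the fetal liver genotype differences were Fosb 2.62, Fosl2 1.93, Junb 0.48 and Batf 0.93. Between wild-type sources they were Fosb 5.22, Fosl2 2.14, Junb 0.16, Jund 2.65, Atf3 0.52 and Batf 1.71, with 1961 lower. Between Ezh2-null sources they were Fos 3.67, Fosb 0.22, Fosl1 -0.24, Fosl2 2.27, Jun 1.64, Junb -0.47, Jund -0.13, Atf3 0.75 and Batf 0.18, with 3166 higher and 2423 lower. The share of higher calls was then 63.2% in fetal liver, 41.3% in bone marrow, and 60.6% and 56.6% between wild-type and Ezh2-null sources.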
